A study of Mus musculus with 21 samples.

Results

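Immediate early response genes were followed in epididymal fat, a visceral depot next to the testis, of male mice on a normal or a high-fat diet. The 10 genes were taken by symbol: the EGR family members Egr1, Egr2 and Egr3, the AP-1 family factors Fos, Jun and Atf3, the nuclear receptor Nr4a1, and the regulators Dusp1, Ier3 and Btg2. All 10 were measured, each by 1 probe that carries its symbol alone, among 16248 genes in all. Levels are log2 values, so that a difference of 1 is a doubling in signal.

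The mice were C57BL/6J, individually housed, 4 weeks old on arrival and fed their diets for 12 weeks after 1 week on chow. There were 21 whole-transcript arrays, 3 in each of 7 groups. The ND group took 10% of its energy from fat and the HFD group 40%. The other 5 groups carry the high-fat diet in their labels. BC adds 0.3% (by weight) Bacillus coagulans, a bacterium that forms spores, SMG adds 0.3% steamed grain, L_FMG adds 0.3% fermented mixed grain and H_FMG adds 0.9% of it. RMG is a code whose supplement the labels leave undescribed. An array is called by its group and its title's number, which was taken to stand for a mouse. The labels give 10 mice each for ND, HFD, BC and SMG. They do not say how mice were picked for arrays, in how many sessions they were killed or how long the fat waited before lysis.

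Immediate early genes are switched on within minutes of a stimulus, without new protein synthesis, by transcription factors that already sit in the cell. Growth factors, cytokines, stress and the handling of tissue can all induce them, and their transcripts are short-lived. The EGR proteins are zinc finger transcription factors, and Egr2 is also known from macrophages and from fat cell differentiation. Fos and Jun pair to form the AP-1 transcription factor, and Atf3 is a related factor induced by stress and by inflammatory signals. Dusp1 is a phosphatase that switches off MAP kinases and Btg2 is an antiproliferative protein. In whole fat, fewer cells of a type and less RNA per cell cannot be told apart.

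On the high-fat diet 3 of the 10 genes were higher. Egr2, Fos and Atf3 rose from ND to HFD by 3.10-fold, 2.72-fold and 2.64-fold. The other 7, Egr1, Egr3, Jun, Nr4a1, Dusp1, Ier3 and Btg2, did not pass the test. Over all genes 8.63% were called in this comparison and 6.54% were called as higher. The median change was 0.17 for the 10 members and -0.04 for all genes. The test was limma's moderated test with Benjamini-Hochberg adjustment over all genes, and called means an adjusted p below 0.05.

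Of the EGR factors, Egr2 stood at 5.77, 5.02 and 6.66 in ND 6, 8 and 9, and at 7.41, 7.66 and 7.30 in HFD 4, 6 and 7. All HFD arrays lay above all ND arrays, and within ND the arrays differed by more than they did within HFD. The mean was 5.82 ± 0.82 (SD, n = 3) in ND and 7.45 ± 0.18 in HFD, a change of 1.63 ± 0.33 (SE; adjusted p = 0.00523). This call held when any 1 array was left out and under each other setting tried. Egr1, the founding member of the family, stood at 5.52, 5.02 and 6.05 in ND and at 6.30, 6.09 and 6.16 in HFD. The groups did not overlap, yet the change of 0.65 ± 0.24 did not pass (adjusted p = 0.0895). ND 9 was the highest of the ND arrays, and without it the change in Egr1 was 0.91 (adjusted p = 0.0211). With array weights, which let arrays far from their group count less, Egr1 also passed (0.00624). Egr3 was dim, at 4.18, 4.41 and 4.57 in ND and 4.68, 4.65 and 4.65 in HFD. Its groups did not overlap either, and its change of 0.27 ± 0.13 did not pass (adjusted p = 0.190). In all 4 members had HFD arrays wholly above the ND arrays, as did 15.7% of all genes.

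Of the AP-1 factors, Fos stood at 5.63, 5.14 and 6.74 in ND 6, 8 and 9, and at 7.36, 7.43 and 7.06 in HFD 4, 6 and 7. Again no array of one group reached into the other, and ND 9 came nearest. The mean rose from 5.84 ± 0.82 to 7.28 ± 0.20, by 1.45 ± 0.32 (adjusted p = 0.00811). Atf3 stood at 6.97, 6.60 and 8.49 in ND and at 8.86, 8.98 and 8.42 in HFD. Here the groups overlapped, because ND 9 was just above HFD 7. The change in Atf3 was 1.40 ± 0.37 (adjusted p = 0.0226). Jun, the partner of Fos, stood at 7.57, 7.43 and 6.97 in ND and at 7.42, 7.28 and 7.31 in HFD. The groups lay on the same level, with a change of 0.01 and a 95% interval from -0.36 to 0.38 (adjusted p = 0.972). The Fos call was lost without HFD 6 (adjusted p = 0.0517). The Atf3 call was lost without ND 6 (0.0697), ND 8 (0.104), HFD 4 (0.0647) or HFD 6 (0.106), with quantile normalization (0.0667) and in a fit of the ND and HFD arrays alone (0.0981).

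The remaining members lay close together in the ND and HFD groups. Nr4a1, an orphan nuclear receptor, averaged 6.09 ± 0.27 in ND and 6.10 ± 0.15 in HFD, a change of 0.01 with an interval from -0.40 to 0.43 (adjusted p = 0.974). Dusp1 averaged 8.25 ± 0.20 and 8.30 ± 0.07, with an interval from -0.30 to 0.40 for the change (adjusted p = 0.880). Ier3, a short-lived regulator of cell survival, averaged 5.62 ± 0.22 and 5.69 ± 0.07, with an interval from -0.26 to 0.40 (adjusted p = 0.809). Btg2 averaged 6.61 ± 0.12 and 6.67 ± 0.14, with an interval from -0.23 to 0.35 (adjusted p = 0.813). Changes of the size seen for Egr2 or Fos lie outside each of these 4 intervals and that of Jun.

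**Figure D1:**
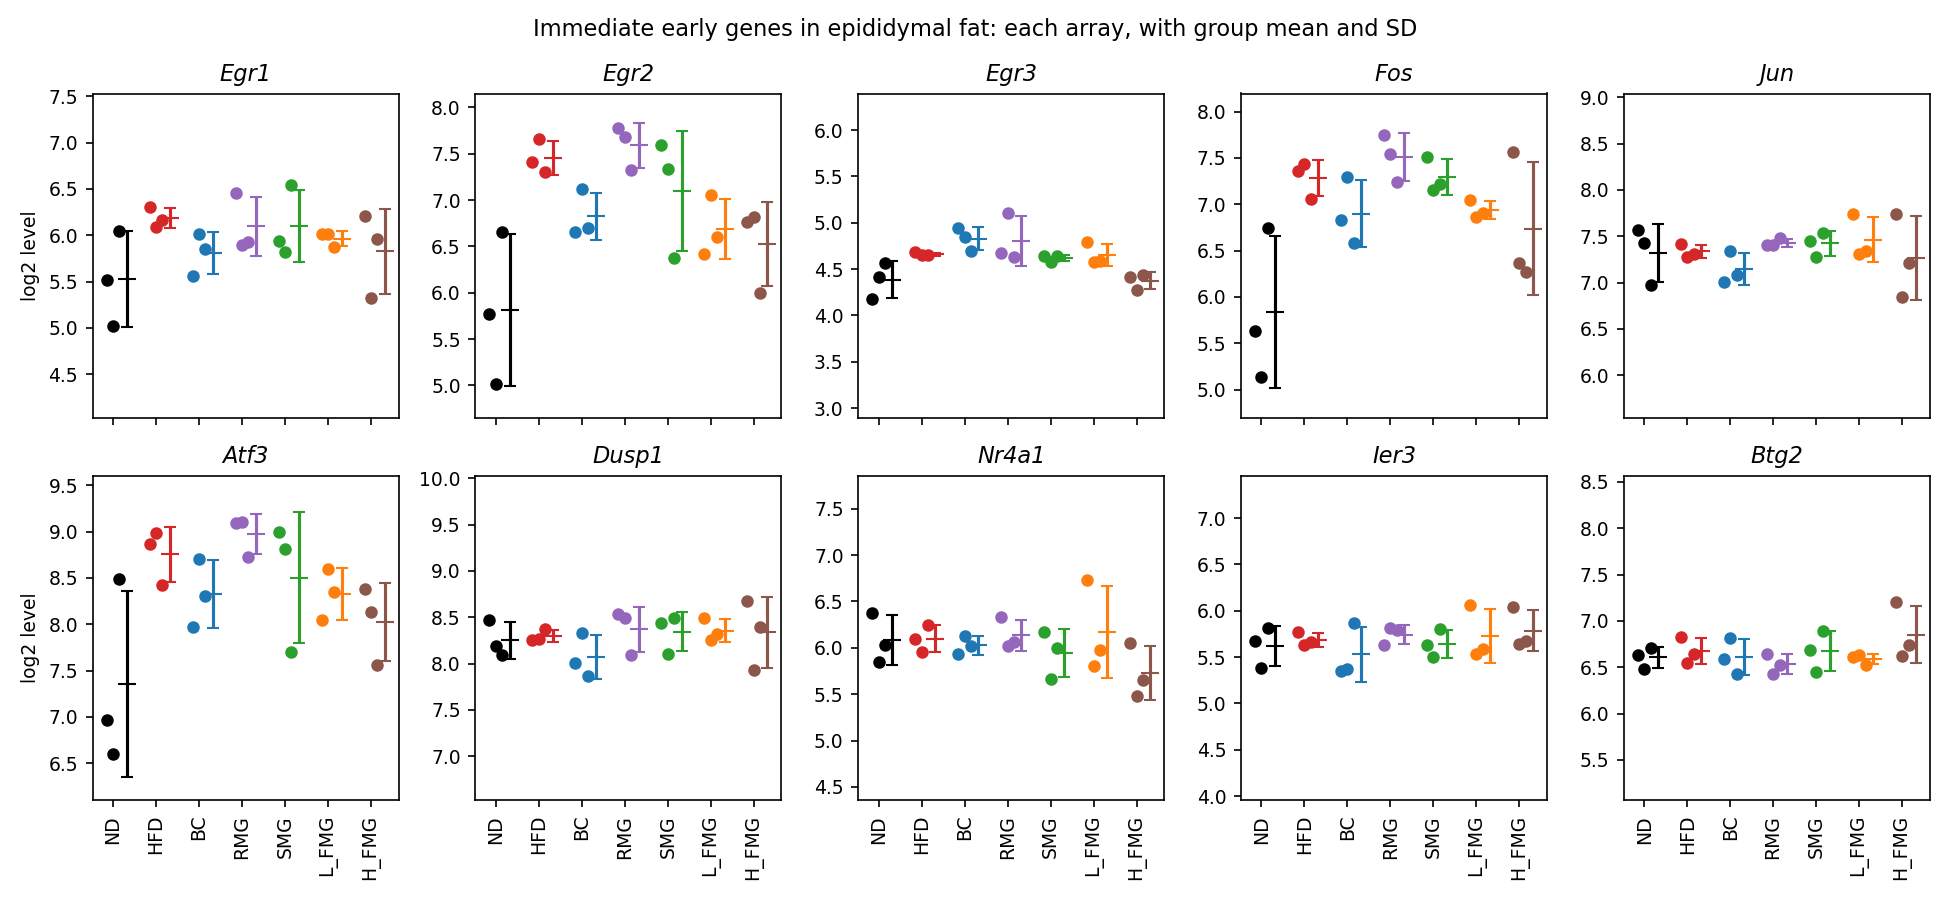
Level of each of the 10 genes (log2, y axis) in the 7 groups (x axis), 1 point per array with the group mean and SD beside the points. Each panel spans the same number of log2 units. Egr2, Fos and Atf3 have low ND arrays with ND 9 above ND 6 and 8, while Jun, Dusp1, Ier3 and Btg2 keep to a narrow band.

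The sequences just before the transcription start sites are shown for Egr2, Fos and Atf3, the 3 called genes, and for Dusp1 and Btg2, which share a motif with them and were not called. They are RefSeq windows of build GRCm38.p6, cut to the 200 bases before the start and written 5′ to 3′ on the gene's strand. The stretch for Egr2 is chr10:67537669-67537868 (+), for Fos chr12:85473690-85473889 (+), for Atf3 chr1:191183334-191183533 (-), for Dusp1 chr17:26508473-26508672 (-) and for Btg2 chr1:134079156-134079355 (-). Capitals mark matches to the cAMP response element TGACGTCA, to its core TGACGT, which overlaps it, and to the CArG box bound by serum response factor, on either strand.
Egr2: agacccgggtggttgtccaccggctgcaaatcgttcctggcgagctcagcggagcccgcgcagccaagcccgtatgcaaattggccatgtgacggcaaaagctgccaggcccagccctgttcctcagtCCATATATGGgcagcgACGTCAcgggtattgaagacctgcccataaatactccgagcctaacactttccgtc
Fos: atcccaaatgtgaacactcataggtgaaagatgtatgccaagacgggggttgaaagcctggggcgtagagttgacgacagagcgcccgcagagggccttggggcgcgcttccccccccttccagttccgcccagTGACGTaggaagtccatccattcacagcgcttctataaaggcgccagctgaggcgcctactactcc
Atf3: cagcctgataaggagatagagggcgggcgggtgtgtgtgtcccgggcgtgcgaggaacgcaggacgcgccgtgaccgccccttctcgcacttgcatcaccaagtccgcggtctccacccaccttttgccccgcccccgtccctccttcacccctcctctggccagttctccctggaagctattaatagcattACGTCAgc
Dusp1: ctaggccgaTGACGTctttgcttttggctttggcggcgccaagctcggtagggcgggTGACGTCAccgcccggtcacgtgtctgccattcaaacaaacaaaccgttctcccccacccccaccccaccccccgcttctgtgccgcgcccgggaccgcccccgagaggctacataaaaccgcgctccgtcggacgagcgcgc
Btg2: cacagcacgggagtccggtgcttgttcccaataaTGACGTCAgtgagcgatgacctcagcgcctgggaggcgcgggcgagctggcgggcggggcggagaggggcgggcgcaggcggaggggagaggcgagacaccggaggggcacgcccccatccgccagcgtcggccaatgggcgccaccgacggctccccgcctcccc
The core TGACGT was found in all 5, and the whole element TGACGTCA in Dusp1 and Btg2 only among members with a window. Within the 200 bases shown, Egr2 alone of the 5 had a CArG box, 72 to 63 bases before this start, followed by the core at 56 to 51 bases. Egr2 has 5 start windows in RefSeq, and the one shown is the first that holds both motifs. In Fos the core lay 66 to 61 bases before the start, and in Atf3 8 to 3 bases before it.

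Windows from 250 bases before to 50 after the start were matched for 8 of the 10 members, and Egr1 and Egr3 had none. Of all 27025 genes with a window, 8.37% held the core TGACGT in at least 1 of theirs, 2.03% the whole element, 1.81% a CArG box, 5.95% the AP-1 site TGACTCA, 3.93% an EGR site (GCGTGGGCG or GCGGGGGCG) and 9.55% an NF-kB site. Counted over the 32851 windows, the shares were 7.51%, 1.79%, 1.63%, 5.2%, 3.47% and 8.46%. Among the 8 members with a window, again counted by gene, 5 held the core, 2 the whole element and 1 the CArG box. None held TGACTCA, 1 (Nr4a1) an EGR site and 4 (Egr2, Fos, Nr4a1 and Ier3) an NF-kB site. The core was thus present in the called Egr2, Fos and Atf3 and in the uncalled Dusp1 and Btg2. It was in no window of the uncalled Jun, Nr4a1 and Ier3. A match describes letters in the window and not a site in use. Sequence outside the windows was not searched, so a motif not found here can lie farther from the start.

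Macrophage markers moved in the same comparison. Of 18 listed, 16 were measured, and 14 of them were higher in HFD than in ND, with a median change of 1.17. The mean of the 16 was 7.22 to 7.96 in ND and 8.64 to 8.85 in HFD. Cd68, a lysosomal protein of macrophages, rose by 1.60 ± 0.29 (adjusted p = 0.00371), and Gpnmb, a glycoprotein of lipid-laden macrophages, by 2.23 ± 0.44 (adjusted p = 0.00487). Lyz2, the lysozyme of myeloid cells, rose by 0.46 ± 0.14 (adjusted p = 0.0441). Cd163 (-0.24) and Cd9 (-0.01) did not pass. ND 9 had the highest macrophage mean of the ND arrays, at 7.96 against 7.32 and 7.22, as it had the highest Egr2, Fos and Atf3. It was also the highest ND array in the uncalled Egr1, Egr3, Ier3 and Btg2, and not in Jun, Dusp1 and Nr4a1. The part of macrophages in the changes of Egr2, Fos and Atf3 was not tested.

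Of the other cell types, smaller shares of the markers passed between ND and HFD. Endothelial markers all changed downward, from -0.71 (Vwf) to -0.23 (Tek), and fibroblast markers all upward, from 0.15 (Cd34) to 1.40 (Lum). The mean of 8 adipocyte markers lay between 8.80 and 9.76 on every array, as befits the labelled tissue, while 6 markers of the epididymal duct averaged 3.07 to 3.63. Of the adipocyte markers 3 were lower in HFD (Pck1, Rbp4 and Acvr1c) and 0 higher, and of 9 fibroblast markers 4 were higher (Pdgfra, Col1a1, Lum and Fap). Of 8 mast cell markers 2 were higher (Cpa3 and Mcpt4), of 6 neutrophil markers 1 (Csf3r) and of 5 lymphocyte markers 1 (Il7r). Lower were 1 of 8 endothelial markers (Vwf), 2 of 6 smooth muscle markers (Myh11 and Notch3) and 1 of 6 duct markers (Defb20). Beside these counts, 8.63% of all genes were called in either direction and 6.54% as higher. Of 6 mesothelial markers 0 passed in limma's test. Their part in the members' changes was not tested.

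Each supplemented group was also set against ND. These comparisons share the 3 ND arrays with each other and with the one above. RMG had 4 called members, all higher than ND: Egr2 by 1.77 ± 0.33 (adjusted p = 0.00105), Fos by 1.68 ± 0.32 (0.00124), Atf3 by 1.61 ± 0.37 (0.00524) and Egr3 by 0.41 ± 0.13 (0.0337). Over all genes 14.8% were called in this comparison and 10.2% were called as higher. These 4 members had RMG arrays wholly above the ND arrays, against 17.1% of all genes. SMG had 2, Fos higher by 1.46 ± 0.32 (adjusted p = 0.0132) and Egr2 by 1.28 ± 0.33 (0.0265), against 5.83% of all genes in either direction and 4.74% higher. In SMG 2 members, Fos and the uncalled Egr3, had arrays wholly above ND, against 11.2% of all genes. The SMG arrays of Egr2 overlapped with ND. Atf3 in SMG was 1.15 ± 0.37 above ND and did not pass (adjusted p = 0.071).

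In BC, L_FMG and H_FMG limma called 0 members against ND. The background was 0.111% of all genes in BC, 0.00615% in L_FMG and 0.00615% in H_FMG. At an unadjusted p below 0.05 there were 4 members in BC, 3 in L_FMG and 2 in H_FMG, beside 15.1%, 12.9% and 8.36% of all genes. The change in Fos was 1.07 ± 0.32 in BC (adjusted p = 0.125), 1.10 ± 0.32 in L_FMG (0.168) and 0.90 in H_FMG (0.498). The ND array numbered 9 weighed on these counts. Without it 4 members passed in BC, Egr2 (adjusted p = 0.0177), Egr3 (0.0461), Fos (0.00799) and Atf3 (0.0122), and 3 in L_FMG, Egr2 (0.0352), Fos (0.00959) and Atf3 (0.0155). In H_FMG 0 passed with any single array left out. Leaving out single arrays moved the SMG count between 0 and 4 and the RMG count between 3 and 5. The Egr3 call in RMG was lost without RMG 9 (adjusted p = 0.178), ND 6 (0.135) or ND 8 (0.0645). Both SMG calls were lost without SMG 5 (Egr2 0.179, Fos 0.102), SMG 8 (0.126 and 0.0709) or ND 8 (0.119 and 0.0667), and that of Egr2 without ND 6 (0.057). Without SMG 12, the SMG array lowest in Egr2 and Atf3, Atf3 passed in SMG (0.00996), as it did without ND 9 (0.0027). Egr1 passed without ND 9 in RMG (0.0218) and in SMG (0.0418).

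The macrophage markers were counted in these groups too. Against ND, 14 of the 16 rose in RMG and 13 of 16 in SMG, beside 10.2% and 4.74% of all genes called as higher. In BC, L_FMG and H_FMG 0 passed, beside 0.111%, 0.00615% and 0.00615% of all genes, so that a count of 0 says little there. Their median changes in these groups were 0.69, 0.55 and 0.29. The mean of the 16 markers lay at 8.85 to 9.01 in RMG, 8.04 to 8.93 in SMG, 8.03 to 8.58 in BC, 7.96 to 8.39 in L_FMG and 7.47 to 8.33 in H_FMG.

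Across the 7 groups a moderated F test called Egr2 (adjusted p = 0.0156) and Fos (0.0229) and no other member, against 6.47% of all genes. Without ND 6 or ND 8 it called 0 members, without RMG 4 or RMG 9 it called 1, and without ND 9 or SMG 12 it called 3. Egr2 was 7.78, 7.68 and 7.32 in RMG 4, 9 and 10, and 7.59, 7.34 and 6.37 in SMG 5, 8 and 12. It was 6.66, 7.12 and 6.70 in BC 4, 7 and 11, 6.42, 7.05 and 6.60 in L_FMG 4, 8 and 10, and 6.76, 6.82 and 6.00 in H_FMG 3, 6 and 8. By group mean Egr2 fell in the order RMG (7.59 ± 0.24), HFD (7.45), SMG (7.10 ± 0.65), BC (6.83 ± 0.25), L_FMG (6.69 ± 0.32), H_FMG (6.53 ± 0.46) and ND (5.82). Neighbours in that order overlapped in every case.

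Fos was 7.75, 7.54 and 7.24 in RMG, 7.51, 7.15 and 7.22 in SMG, 6.83, 7.29 and 6.58 in BC, 7.05, 6.86 and 6.91 in L_FMG, and 7.56, 6.37 and 6.27 in H_FMG. H_FMG 3 stood far above the other 2 arrays of its group. The order of the means was RMG (7.51 ± 0.25), SMG (7.29 ± 0.19), HFD (7.28), L_FMG (6.94 ± 0.09), BC (6.90 ± 0.36), H_FMG (6.74 ± 0.72) and ND (5.84). Of these neighbours HFD and L_FMG alone did not overlap, with 7.06 the lowest HFD array and 7.05 the highest of L_FMG. Atf3 was 9.09, 9.10 and 8.72 in RMG, 9.0, 8.81 and 7.70 in SMG, 7.97, 8.70 and 8.30 in BC, 8.04, 8.60 and 8.35 in L_FMG, and 8.38, 8.13 and 7.56 in H_FMG. Its group means ran from 8.97 ± 0.21 in RMG and 8.76 ± 0.29 in HFD down to 8.02 ± 0.42 in H_FMG and 7.35 ± 1.00 in ND, and neighbours overlapped throughout. For Egr3, BC (4.83 ± 0.12) and RMG (4.80 ± 0.26) were the highest means, and H_FMG (4.37 ± 0.09) and ND (4.39 ± 0.20) the lowest. Egr3 did not pass the moderated F test over the groups (adjusted p = 0.0956), and its order was not tested against that of other members.

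**Figure D2:**
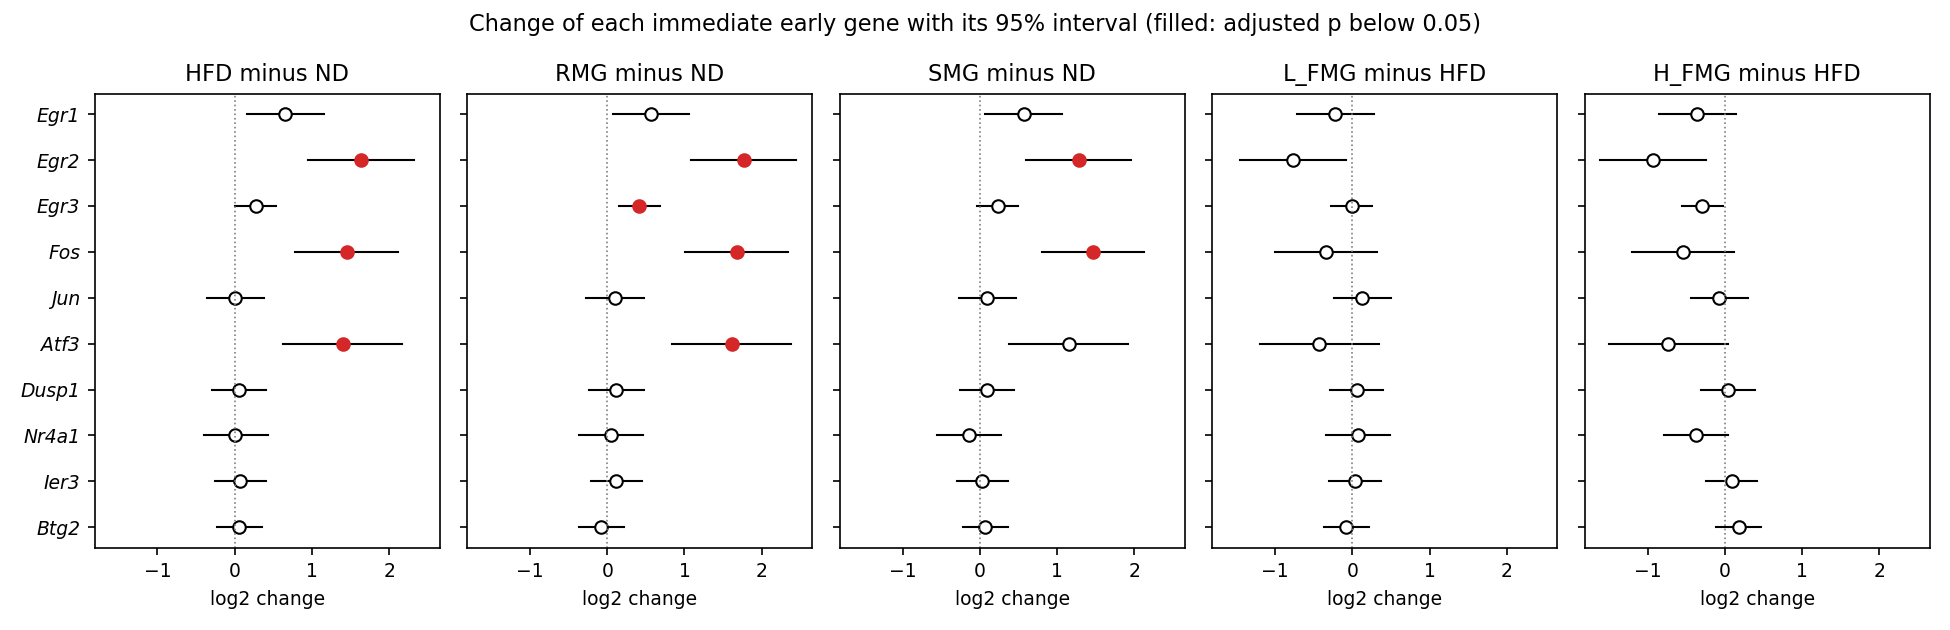
Log2 change of each gene (x axis, point with its 95% interval) in 5 comparisons, filled red where the adjusted p is below 0.05. Egr2 and Fos are filled in all 3 comparisons with ND that are shown and Atf3 in 2 of them. No gene is filled in the 2 comparisons of fermented grain with HFD. The comparisons of BC, L_FMG and H_FMG with ND, in which 0 members passed, are not shown.

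Whether a supplement changed the genes on the high-fat diet was asked by comparison with HFD, and the 5 comparisons share the 3 HFD arrays. Limma called 0 members in each of them. Over all genes the share called was 0% for BC, 0% for RMG, 0% for SMG, 0% for L_FMG and 0.00615% for H_FMG. At an unadjusted p below 0.05 there were 2 members in H_FMG and 1 in L_FMG, beside 14.5% and 8.66% of all genes, so that these counts of 10 members lay near the background. There were 0 in BC, RMG and SMG, beside 5.18%, 2.82% and 1.85%. In BC, Egr1 lay wholly below HFD and Egr3 wholly above it. Egr1 and Fos in L_FMG and Egr3 in SMG lay wholly below HFD, though Egr3 in SMG changed by only -0.04. For BC, SMG and L_FMG the share of all genes without overlap was not counted. These separations, and those of Egr2 in BC and L_FMG that follow, therefore cannot be judged against a background. Egr2 lay wholly below HFD in BC, L_FMG and H_FMG, with changes of -0.63 ± 0.33 (adjusted p = 0.917), -0.77 ± 0.33 (0.543) and -0.93 ± 0.33 (0.203). In RMG and SMG it overlapped with HFD, with changes of 0.14 ± 0.33 and -0.35 ± 0.33 (adjusted p = 1 for both).

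In H_FMG, Egr2, Egr3 and Atf3 lay wholly below HFD, against 11.4% of all genes. Atf3 changed by -0.73 with a 95% interval from -1.50 to 0.04 (adjusted p = 0.374) and Egr3 by -0.29 with an interval from -0.56 to -0.02 (0.310). Fos changed by -0.54 ± 0.32 (adjusted p = 0.461) and Nr4a1 by -0.37 ± 0.20 (0.409). The median change of the members in H_FMG was -0.32, and that of all genes 0.02. H_FMG 3 stood above H_FMG 6 and 8 in Egr1, Fos, Jun, Atf3, Dusp1, Nr4a1, Ier3 and Btg2, with Fos at 7.56 against 6.37 and 6.27 and Btg2 at 7.20 against 6.62 and 6.74. Without it the change in Fos was -0.96 ± 0.30 (adjusted p = 0.0922) and in Egr2 -1.04 ± 0.37 (0.133). Without H_FMG 6 the change in Fos was -0.36 (0.792), and without H_FMG 8 it was -0.31 (0.865). Over the same comparison 0 of the 16 macrophage markers passed, and their median change was -0.86.

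A linear dose trend over 0, 0.3 and 0.9% fermented grain was called by limma in 0 members, against 0% of all genes. At an unadjusted p below 0.05 there were 3 members, beside 13% of all genes. The fitted change from 0 to 0.9% was -0.83 ± 0.32 for Egr2 (adjusted p = 0.283), -0.31 ± 0.13 for Egr3 (0.303) and -0.41 ± 0.19 for Nr4a1 (0.371).

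Mice of the same group differed widely in some of these genes. The residual SD between arrays of a group was 0.536 for Atf3, 0.473 for Egr2 and 0.458 for Fos, larger than in 99.3%, 98.8% and 98.7% of all genes. Egr1 followed with 0.336. Egr3, at 0.145, lay under the median of all genes, 0.181. The median over the 10 members was 0.258, and 0.16 over the 7771 genes whose mean level lay in the members' range. The widest gaps were in ND, where Atf3 was 6.60 in ND 8 and 8.49 in ND 9.

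To see whether the genes vary together from mouse to mouse, each array's deviation from its group mean was correlated between members over the 21 arrays. Of 45 pairs 38 had a positive Pearson's r, with a median of 0.28 and a range from -0.34 to 0.95. By permutation of arrays within groups, 100000 times, 5 pairs passed after adjustment over the 45. Egr2 and Atf3 stood out with r = 0.95 and Spearman's rho = 0.92 (permutation p = 3e-05, adjusted p = 0.00135), and r was 0.93 without the 2 arrays farthest from the median. The other pairs were Jun with Dusp1 (r = 0.77, rho = 0.74, adjusted permutation p = 0.0325), Egr1 with Btg2 (r = 0.76, rho = 0.76, 0.0325), Fos with Atf3 (r = 0.74, rho = 0.68, 0.0325) and Dusp1 with Nr4a1 (r = 0.69, rho = 0.73, 0.0232). Without the 2 farthest arrays r was 0.61, 0.78, 0.62 and 0.63 for these. With rho in place of r 4 pairs passed, and Fos with Atf3 did not (adjusted permutation p = 0.0561). After quantile normalization Jun with Dusp1 did not pass (0.0725) and Fos with Btg2 did (0.0415).

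The members did not form a single block. Egr2 and Atf3 had negative r with Jun (-0.34, adjusted permutation p = 0.588, and -0.31, 0.64). Jun, Dusp1 and Nr4a1 had r of 0.69 to 0.77 with each other, though Jun with Nr4a1 did not pass (adjusted permutation p = 0.058). Egr2 with Fos, at r = 0.69, did not pass either (0.11). Nor did Fos with Btg2 (r = 0.68, adjusted permutation p = 0.0527) or with Egr1 (r = 0.67, 0.163). Fos had positive r with all other members, from 0.18 for Jun to 0.74 for Atf3. Egr1 and Egr2, of the same family, had r = 0.19.

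**Figure D3:**
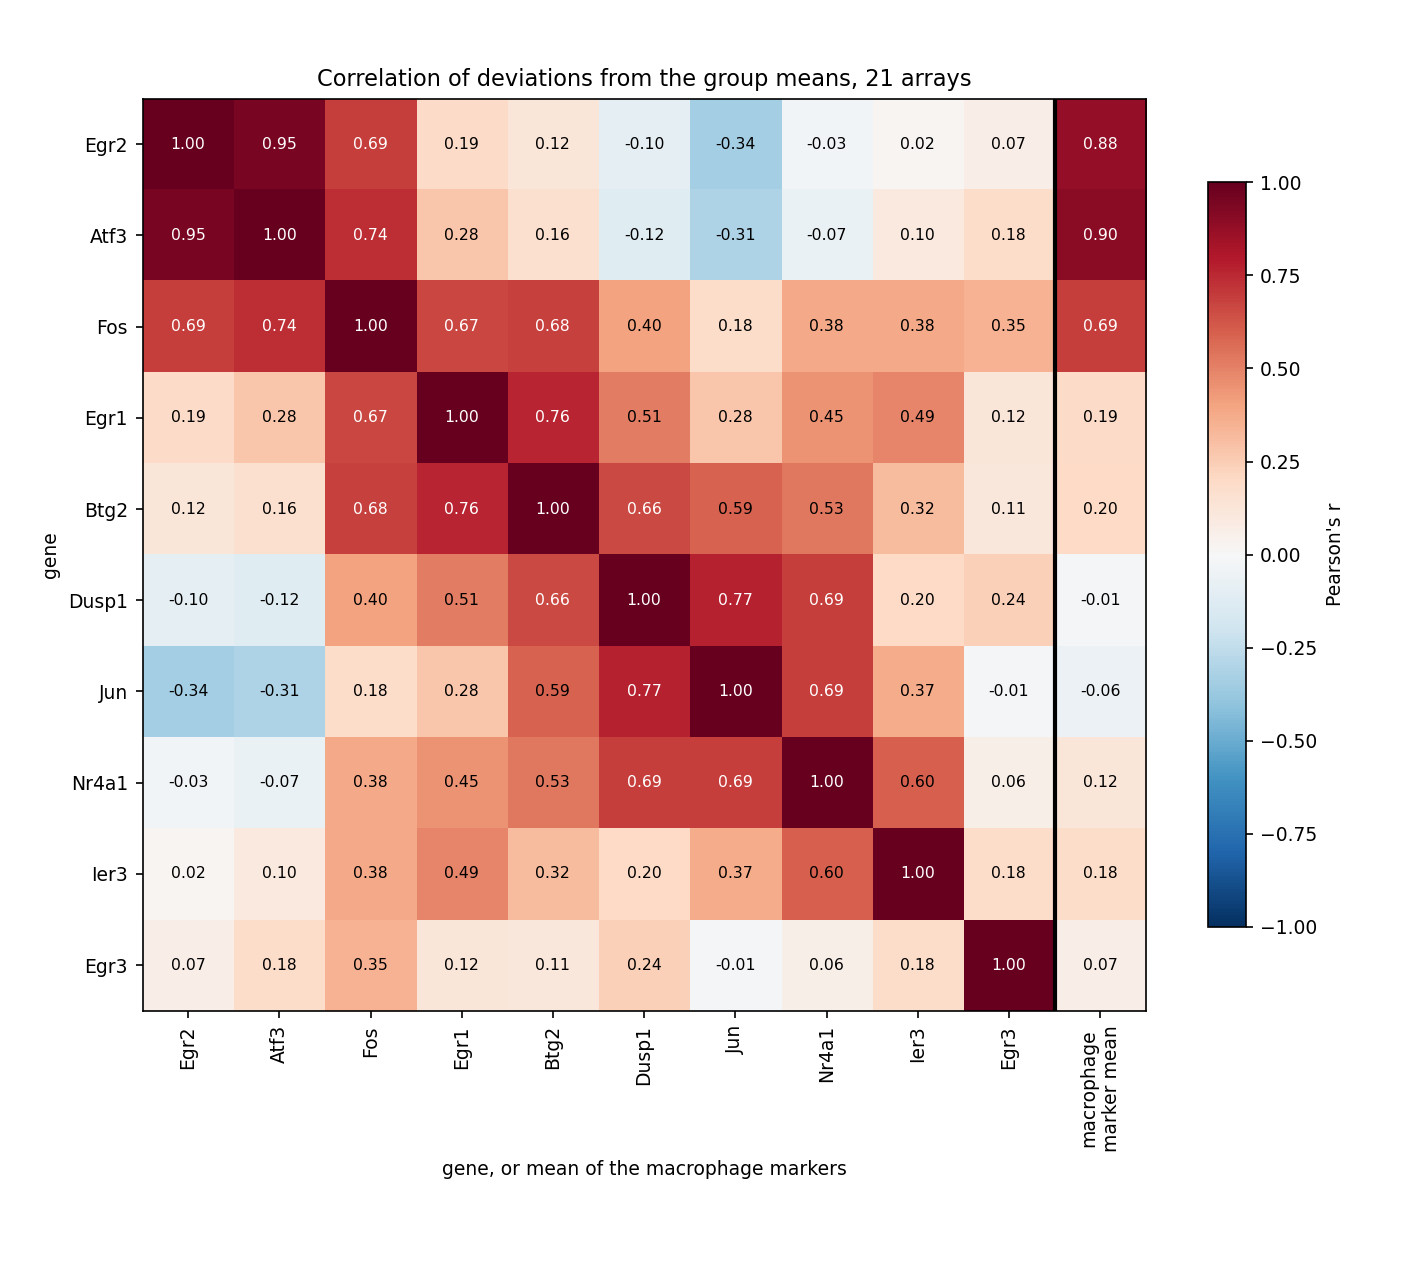
Pearson's r between the deviations of 2 genes from their group means over 21 arrays (colour and number), with the mean of 16 macrophage markers as the last column. The order of the genes was set by hand and not by clustering. Egr2, Atf3 and Fos have r of 0.69 to 0.90 with the macrophage mean, and Jun, Dusp1 and Nr4a1 have r of -0.06 to 0.12. Fos has r of 0.69 with Egr2, 0.68 with Btg2 and 0.67 with Egr1, and none of these pairs passed the permutation test. Jun with Nr4a1 did not pass it either.

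The same deviations were set against those of the macrophage mean and of no other cell type, a comparison added with the values above in view. Atf3 had r = 0.90 and rho = 0.94 (adjusted permutation p = 0.00145 over 10 members) and Egr2 r = 0.88 and rho = 0.87 (0.00145). Fos had r = 0.69 (adjusted permutation p = 0.0395) and rho = 0.61 (0.0795), and its r was 0.52 without the 2 farthest arrays. For the other 7 members r lay between -0.06 and 0.20, with adjusted permutation p of 0.966 or more. Atf3, Egr2 and Fos, with the highest r to the macrophage mean within groups, were also the 3 members called between HFD and ND. Both results drew on the ND and HFD arrays, and whether macrophages had a part in these 3 calls was not tested.

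**Figure D4:**
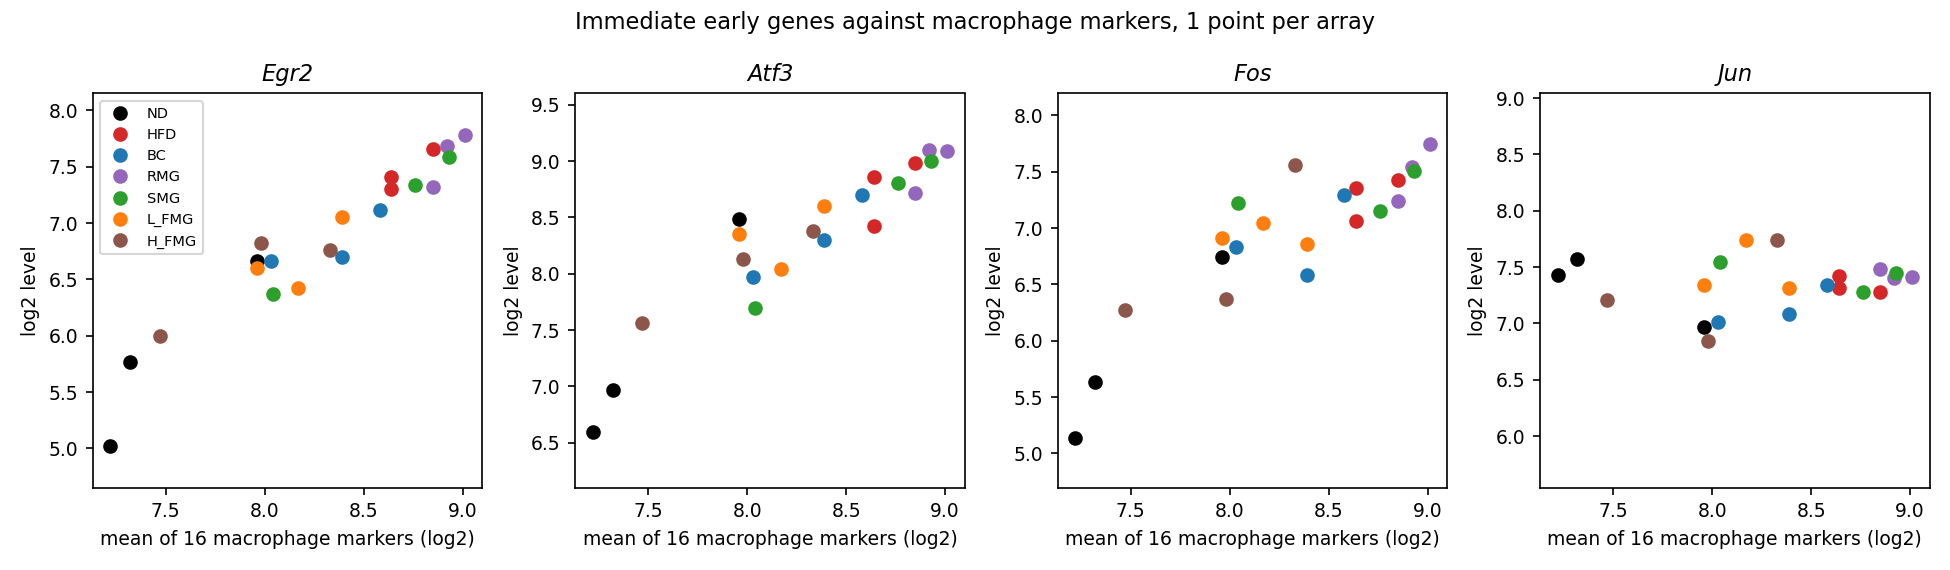
Log2 level of Egr2, Atf3, Fos and Jun (y axis) against the mean log2 level of 16 macrophage markers (x axis), 1 point per array, coloured by group. ND 8 and ND 6 lie at the lower left for Egr2, Atf3 and Fos and RMG and HFD arrays at the upper right, while Jun shows no such slope; Fos of H_FMG 3, at 7.56, lies above other arrays of a like macrophage mean.

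The genes whose deviations were most like the mean deviation of the 10 members were ranked by Pearson's r over the 21 arrays, as a description. The first 10 outside the members were Usp48 (0.85), Myc (0.82), Rcc1 (0.81), Abcg1 (0.80), Speer4f1 (0.79), Cd44 (0.79), Snx9 (0.78), Ndufaf5 (0.78), Tubb6 (0.78) and Tmem165 (0.77). Myc, a transcription factor and itself an early response gene, was the only one of them on the lists used here. Between HFD and ND it changed by 0.21 (adjusted p = 0.296), while Cd44, an adhesion receptor for hyaluronan, rose by 1.49 (0.00481). Among the members Fos lay closest to that mean (r = 0.96) and Egr3 and Jun farthest (0.30 and 0.32).

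Other early response genes were taken from a list of 60, of which 47 were measured. In HFD 8 of the 47 were higher than in ND and 0 lower, with a median change of 0.08, and 6.54% of all genes were called as higher. Rgs2, which dampens G protein signalling, rose by 1.26 ± 0.24 (adjusted p = 0.00454), Gadd45b, a stress-induced regulator, by 0.89 ± 0.18 (0.00588), and the polo-like kinase Plk2 by 0.86 ± 0.19 (0.0073). Smaller rises were seen in Bhlhe40 (0.46), Sgk1 (0.43), Cited2 (0.41), Zfp36l2 (0.37) and Klf10 (0.34). In RMG 10 were higher than in ND (Rgs2 by 1.61), against 10.2% of all genes, and 2 were lower, the inhibitors of differentiation Id1 (-0.76) and Id3 (-0.60). Called in either direction in RMG were 14.8% of all genes. In SMG 5 were higher (Rgs2 by 1.11), against 4.74% of all genes, and between H_FMG and HFD 0 were called. The count of 8 was 1 without HFD 6 and 19 with array weights.

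Genes that relay signals to the immediate early genes, act with them or respond to stress were counted in the same way. Of 32 upstream kinases and factors 19 were measured, and 3 were higher in HFD than in ND: the serum response factor coactivators Mrtfa (0.62 ± 0.14, adjusted p = 0.00927) and Mrtfb (0.39 ± 0.11, 0.0302) and the kinase Map2k4 (0.44 ± 0.13, 0.0349). Over all genes 6.54% were called as higher. Of 22 feedback genes and partners 17 were measured and 1 was higher, Dusp5, a phosphatase of nuclear ERK (0.96 ± 0.21, adjusted p = 0.00718). Of 12 heat shock genes, included because handling of tissue can induce them, 8 were measured and 1 was higher, Hspa8 (0.32 ± 0.10, adjusted p = 0.0475). Their median changes were 0.15, 0.09 and 0.13, against -0.04 for all genes. Without HFD 6 the counts of 3, 1 and 1 were 1, 0 and 0. In RMG 5, 3 and 2 genes of these lists were higher than in ND, against 10.2% of all genes. There 1 feedback gene was lower, beside 14.8% of all genes called in either direction. Between H_FMG and HFD 0 were called in all 3 lists.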

How the data were processed

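The deposited table held log2 levels, 1 per probe and array. The log base was inferred from the values, and the authors' summarisation and normalization were not found in the labels or headers. RNA was extracted with Trizol and labelled for whole-transcript arrays, per the labels' protocols. Of 24291 complete probes, 17067 had 1 symbol, and the brightest stood for each gene. The table is held in part: its last row ended after 12 values, and it gave 3, 5, 5 and 4 protein-coding genes on chromosomes 7, 8, 9 and X and 42.0% of those on chromosome 6. Shares over all genes thus leave out most of these chromosomes, whose other genes were not analysed here. No further normalization was applied. All 21 arrays were fitted in limma 3.58.1 (R 4.3.3) with 1 mean per group, an intensity trend and two-sided p adjusted by Benjamini-Hochberg. Array number limits the precision, and limma's p-values set a change against the spread between arrays, estimated per gene over all 7 groups. That shared estimate covers groups of unlike spread, such as ND (SD 0.82) and HFD (0.18) for Egr2. Batches could not be checked, as no scan date was found. The members and lists were chosen with earlier results of these data known. Named genes of other lists are the called ones, up to 8 a list, and the 3 brightest macrophage markers; other genes named beside small counts were picked after their values were seen. Same-numbered arrays did not pair (18 pairs, r from -0.30 to 0.18). Fits were repeated under 9 other settings and without each of the 21 arrays.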

Additional observations from a re-analysis of the deposited data

How the results depend on the processing

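No member that passed changed sign in any refit, and 128 of 3296 refits of members that had not passed did. The number of members called moved as follows. With array weights, which gave ND 9 the lowest weight (0.208), 4 passed in BC against ND, 4 in SMG against ND, 3 in L_FMG against ND and 5 in the F test over 7 groups. With quantile normalization 1 passed in SMG against ND and 1 in the F test. With only the arrays of the groups compared 0 passed in SMG against ND. With the number in the title as a replicate block, 3 members passed in HFD against ND, 3 in RMG and 2 in SMG. Leaving out 1 array at a time gave 1 to 4 members in HFD against ND, 0 to 4 in BC, 3 to 5 in RMG, 0 to 4 in SMG, 0 to 3 in L_FMG, 0 to 0 in H_FMG and 0 to 3 in the F test, and 0 to 0 in each comparison with HFD and in the trend. Egr2 in HFD against ND passed under every setting tried. With 3 arrays a group, changes within the printed intervals could not be told from none.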
